A study of Mus musculus with 6 samples.

Results

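The 10 genes described here are the 4 mouse Notch receptor genes (Notch1, Notch2, Notch3 and Notch4), 5 ligand genes (Dll1, Dll3, Dll4, Jag1 and Jag2) and Rbpj, the gene of the DNA-binding protein that Notch acts through. They were chosen by name as the core of the pathway, out of 18193 genes measured, and all 10 had at least 1 probe set of their own on the array. RNA was profiled in embryos at day 9.5 from heart tube, caudal-half tissue and yolk sac, with 2 independent biological replicates per tissue and 1 Affymetrix array for each. From every tissue, cells were isolated by flow cytometry that carried the endothelial protein CD31 and lacked CD41, a protein of platelets and early blood progenitors, and CD45, a protein of leukocytes. All embryos were of a mixed strain background, the sample descriptions of all 3 groups carry the label Wt, no treatment is given, and the labels do not say how many embryos were pooled, if any.

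Notch receptors are membrane proteins that are cut when a ligand on a neighbouring cell binds them, and the freed inner part travels to the nucleus, where it joins Rbpj to switch genes on. In embryonic vessels the pathway is known for arterial identity and for restraining sprouting. It is also needed in endothelium for the emergence of blood stem cells in the trunk, and in the endocardium, the inner lining of the heart, for trabeculae and valves.

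Levels are the natural log of each deposited signal, read here as the authors' normalized log2 values. The base of that scale is nowhere stated. Should the signals be linear instead, every difference grows by a factor of 1.44 and the tests stay as they are. A difference was called where limma, a linear model over all genes, gave a Benjamini-Hochberg adjusted p under 0.05. The number of arrays limits the precision, and the smallest differences called over all genes were 0.73 for heart tube minus caudal-half cells, 0.64 for heart tube minus yolk sac, and 0.66 for caudal-half cells minus yolk sac. Levels of different genes come from different probes and are not compared with each other. Because the arrays measure mixed RNA of a sorted fraction, fewer cells of a type and less RNA per cell cannot be told apart.

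Among the receptors, 2 were higher and 1 was lower in the heart tube than in either other tissue, and among the ligands 1 was lower. Notch2 and Notch3 were higher in the heart tube, whereas Notch4 and the ligand gene Dll4 were lower there. The same 4 genes were called against caudal-half cells and against the yolk sac, 2 in each direction, but both comparisons share the heart tube arrays. Over all genes, 5.51% were called for heart tube minus caudal-half cells (2.86% higher, 2.65% lower) and 11.8% for heart tube minus yolk sac (5.14% higher, 6.67% lower). Between caudal-half cells and the yolk sac only Notch3 was called among the 10, higher in caudal-half cells, where 9.08% of all genes were called (4.22% higher, 4.86% lower). The median difference of the 10 genes was -0.21 for heart tube minus caudal-half cells, -0.05 for heart tube minus yolk sac and 0.03 for caudal-half cells minus yolk sac, against -0.08, -0.06 and 0.02 over all genes.

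**Figure D1:**
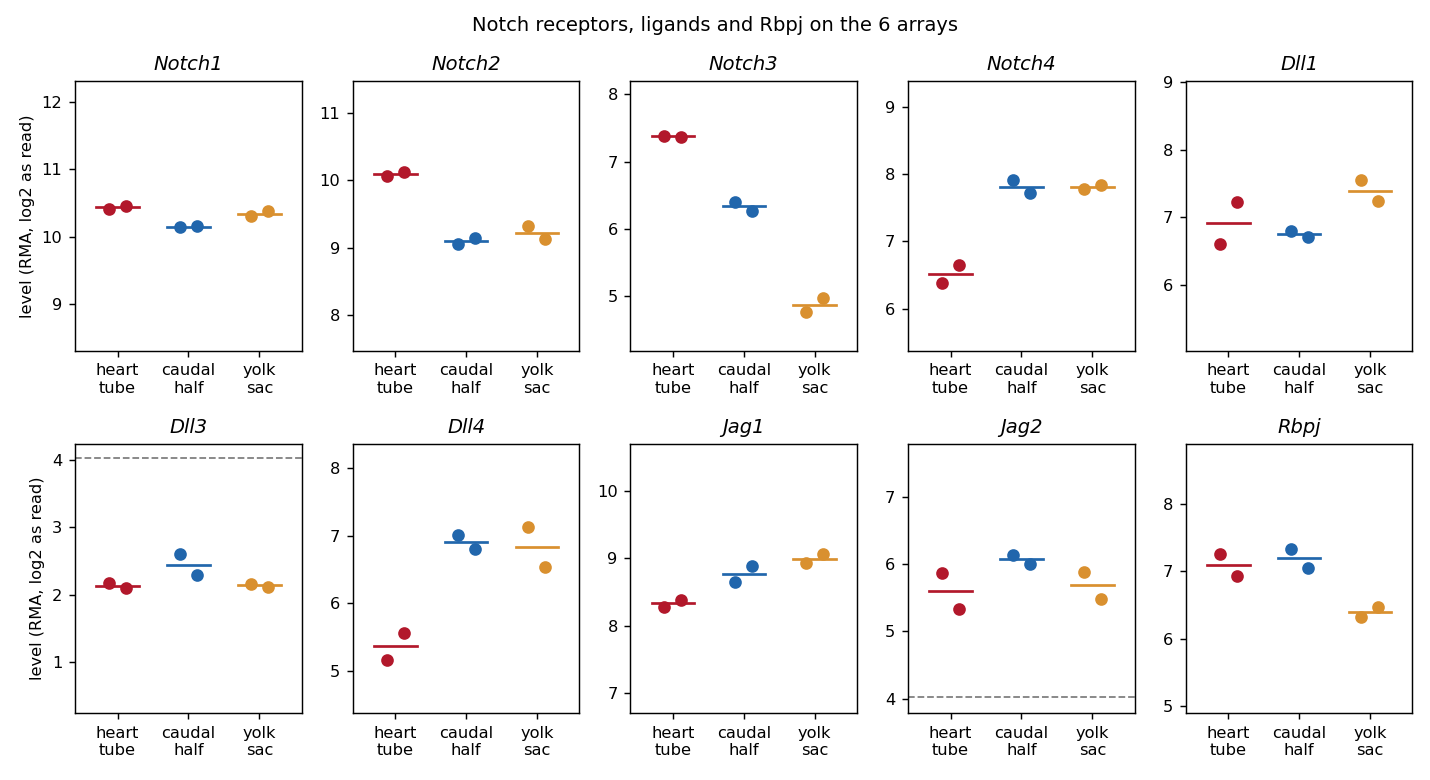
Level of each gene (vertical axis, normalized log2 value as read, each panel spanning 4 units) on the 2 arrays of the heart tube, caudal-half cells and the yolk sac (horizontal axis). Points are arrays and bars are tissue means. The dashed line is the highest value of the bacterial control probe sets (4.03) where a panel reaches it. Notch2 and Notch3 sit highest and Notch4 and Dll4 lowest on both heart tube arrays, and Dll3 lies below the dashed line on all 6.

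The 250 bases before the annotated start are shown for the 4 genes with a called difference between tissues. The sequences are RefSeq's for assembly GRCm38.p6, written in the direction of the gene, and none of the expression values depends on them. The windows are chr3:98013288-98013537 on the plus strand for Notch2, chr17:32166891-32167140 on the minus strand for Notch3, chr17:34564045-34564294 on the plus strand for Notch4 and chr2:119325534-119325783 on the plus strand for Dll4. Capitals mark AGGAAG or its reverse complement, the letters searched as a core of ETS factors, a family active in endothelium.
Notch2: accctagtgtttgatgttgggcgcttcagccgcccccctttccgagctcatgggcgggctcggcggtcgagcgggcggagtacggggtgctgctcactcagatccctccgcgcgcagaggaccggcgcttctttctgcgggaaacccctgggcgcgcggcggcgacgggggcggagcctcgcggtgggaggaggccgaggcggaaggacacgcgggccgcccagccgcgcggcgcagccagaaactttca
Notch3: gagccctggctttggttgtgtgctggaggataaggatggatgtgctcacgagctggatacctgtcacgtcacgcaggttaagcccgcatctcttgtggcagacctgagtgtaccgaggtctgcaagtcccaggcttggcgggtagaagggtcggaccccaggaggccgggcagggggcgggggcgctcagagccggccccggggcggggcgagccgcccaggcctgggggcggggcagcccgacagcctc
Notch4: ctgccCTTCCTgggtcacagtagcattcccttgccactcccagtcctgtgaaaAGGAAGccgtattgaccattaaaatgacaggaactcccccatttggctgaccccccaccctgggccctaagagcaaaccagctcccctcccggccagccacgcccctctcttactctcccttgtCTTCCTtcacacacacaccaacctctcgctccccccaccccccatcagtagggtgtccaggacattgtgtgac
Dll4: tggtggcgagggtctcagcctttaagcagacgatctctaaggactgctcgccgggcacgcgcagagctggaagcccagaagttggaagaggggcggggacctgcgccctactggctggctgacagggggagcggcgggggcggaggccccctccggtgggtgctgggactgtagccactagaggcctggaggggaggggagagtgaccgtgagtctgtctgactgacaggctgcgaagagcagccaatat

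Notch4 held 3 matches to AGGAAG, at 245 to 240, 197 to 192 and 73 to 68 bases before its start. The other windows shown, of Notch2, Notch3 and Dll4, held 0. Among the 12 windows of the 10 genes, the only other match was in a window of Dll1, 14 to 9 bases before its start. Of 32851 promoter windows of the same length in the table, 29.5% had at least 1 match on either strand. A core of the Rbpj site, TGGGAA, was also searched on both strands and is present in 21.6% of all windows. Among the 12 windows of the 10 genes it occurred in 2, and both belong to Rbpj itself and overlap. The longer form GTGGGAA, which contains that core, and CACGTG, an E-box bound by Hes and Hey factors, are present in 5.42% and 6.02% of all windows. These 2 motifs and the GATA core AGATAA (9.99% of all windows) were not found in the 12. ACAAT, searched for SOX factors, was found in the windows of Notch4, Dll1 and Jag1 and in 27.7% of all windows. These matches describe the letters of a short window and say nothing of binding.

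Of the receptors, Notch3 varied most between the tissues. Notch3 is best known from mural cells, the smooth muscle cells and pericytes around vessels. It read 7.38 and 7.37 in the heart tube, 6.40 and 6.27 in caudal-half cells, and 4.77 and 4.98 in the yolk sac. The 3 tissues did not overlap, and each neighbour in the order heart tube, caudal-half and yolk sac cells differed beyond the spread of replicates. Notch3 was higher in heart tube cells than in yolk sac cells by 2.50 ± 0.17 (SE, limma adjusted p = 0.000433), which is 5.66-fold if the scale is log2 and 12.2-fold if the signals are linear. It was higher in caudal-half cells than in the yolk sac by 1.46 ± 0.17 (limma adjusted p = 0.00491) and higher in heart tube cells than in caudal-half cells by 1.04 ± 0.17 (limma adjusted p = 0.0200). The calls against the yolk sac held whichever array was left out, at a highest adjusted p of 0.0377. The call against caudal-half cells was lost without either heart tube array and without either caudal-half array (highest limma adjusted p 0.119).

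The probe set shown for Notch3 carries the manufacturer's suffix for probes shared between transcripts, so its second probe set is also given. That probe set read 6.93 and 7.09 in the heart tube, 5.58 and 5.67 in caudal-half cells, and 3.33 and 4.15 in the yolk sac, in the same order. Its first yolk sac value lies within the range of the bacterial control probe sets (1.33 to 4.03), whose RNA is foreign to the samples. Among all 34945 named probe sets, 4.15% were called for heart tube minus caudal-half cells, 9.78% for heart tube minus yolk sac and 6.92% for caudal-half cells minus yolk sac. Tested among these, the second Notch3 probe set was called for heart tube minus yolk sac (limma adjusted p = 0.00148) and for caudal-half cells minus yolk sac (limma adjusted p = 0.0157). Since 1 of its 2 yolk sac values is at control level, the sizes are limits, 2.93 and 1.54 with that value set to the highest control value. The difference of 1.39 for heart tube minus caudal-half cells missed the threshold (limma adjusted p = 0.0525). The call of this probe set for caudal-half cells minus yolk sac was lost without either caudal-half array (highest limma adjusted p 0.0850).

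Notch2, a receptor with known roles in vascular smooth muscle and the outflow tract, was higher in the heart tube than in both other tissues. It read 10.07 and 10.13 in the heart tube, 9.06 and 9.14 in caudal-half cells, and 9.32 and 9.13 in the yolk sac. Both heart tube arrays lay above all 4 others, while caudal-half cells and the yolk sac overlapped. The difference was 0.99 ± 0.16 for heart tube minus caudal-half cells (limma adjusted p = 0.0221) and 0.87 ± 0.16 for heart tube minus yolk sac (limma adjusted p = 0.0204), or 1.99-fold and 1.83-fold on the log2 reading. For caudal-half cells minus yolk sac it was -0.12 (95% interval -0.52 to 0.27). Each call was lost when any array of the 2 tissues compared was left out (highest limma adjusted p 0.126), and the call against caudal-half cells was also lost with the mean of both Notch2 probe sets (0.80, limma adjusted p = 0.0698). The second probe set went the same way, by 0.61 and 0.90, without passing (limma adjusted p = 0.420 and 0.169).

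Notch4, a receptor found largely in endothelium, showed the opposite arrangement. Its level was 6.38 and 6.66 in the heart tube, 7.91 and 7.71 in caudal-half cells, and 7.78 and 7.83 in the yolk sac. The heart tube arrays were the lowest, and the other tissues had almost equal means. The difference was -1.29 ± 0.18 both for heart tube minus caudal-half cells (limma adjusted p = 0.0122) and for heart tube minus yolk sac (limma adjusted p = 0.00688), a level 2.45-fold lower in the heart tube on the log2 reading. Caudal-half cells minus yolk sac was 0.00 (95% interval -0.44 to 0.44). The first call was lost without the first heart tube array or the first caudal-half array (highest limma adjusted p 0.0869), and the second without the first heart tube array (limma adjusted p = 0.0521).

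Another Notch4 probe set repeated this pattern, with -0.96 for heart tube minus caudal-half cells and -1.05 for heart tube minus yolk sac (limma adjusted p = 0.0449 and 0.0193). Its call against caudal-half cells was lost whichever of the 6 arrays was left out (highest limma adjusted p 0.221). Its call against the yolk sac was lost when any heart tube or yolk sac array was left out (highest limma adjusted p 0.114). The third probe set read 1.61 to 2.29 on all arrays, at the level of the bacterial controls, and was not called.

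Notch1, the receptor most studied in arterial specification and blood stem cell emergence, was called in none of the 3 comparisons. It read 10.42 and 10.46 in the heart tube, 10.14 and 10.16 in caudal-half cells, and 10.31 and 10.39 in the yolk sac. The replicates lay close together, and the order of means was heart tube, yolk sac, caudal-half cells. The differences were 0.29 for heart tube minus caudal-half cells (95% interval -0.09 to 0.66), 0.09 for heart tube minus yolk sac (-0.28 to 0.47) and -0.19 for caudal-half cells minus yolk sac (-0.57 to 0.18). A second probe set was called in none either and gave 0.27, -0.26 and -0.53 in the same order, so the probe sets differ in sign for heart tube minus yolk sac.

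Among the 5 ligand genes, Dll4 was the 1 called on the probe set that stands for its gene. Dll4 is a ligand of arterial endothelium and of the leading cells of vascular sprouts. It read 5.16 and 5.56 in the heart tube, 7.003 and 6.80 in caudal-half cells, and 7.13 and 6.53 in the yolk sac. Both heart tube arrays were lower than the 4 others, among which the tissues overlapped. The difference was -1.54 ± 0.26 for heart tube minus caudal-half cells (limma adjusted p = 0.0232) and -1.47 ± 0.26 for heart tube minus yolk sac (limma adjusted p = 0.0155), which is 2.90-fold and 2.77-fold lower on the log2 reading. Caudal-half cells minus yolk sac was 0.07 (95% interval -0.55 to 0.69). The first call was lost when any of the 4 arrays compared was left out (highest limma adjusted p 0.135), and the second without the first heart tube or the first yolk sac array (highest limma adjusted p 0.0950). A second Dll4 probe set gave -1.29 and -1.39 and missed the threshold (limma adjusted p = 0.117 and 0.0602).

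Jag1 is a ligand with known roles in vessel walls and heart valves. On the probe set that stands for its gene, Jag1 ran in the same direction as Dll4, with smaller differences. It read 8.28 and 8.39 in the heart tube, 8.65 and 8.89 in caudal-half cells, and 8.93 and 9.06 in the yolk sac. The tissues did not overlap, but no difference was called. Heart tube minus yolk sac was -0.66 ± 0.17 (limma adjusted p = 0.0588) and heart tube minus caudal-half cells -0.44 ± 0.17 (limma adjusted p = 0.235). Caudal-half cells minus yolk sac was -0.22 (95% interval -0.64 to 0.19). Of its 3 probe sets, another was called, at -1.17 ± 0.17 for heart tube minus yolk sac (limma adjusted p = 0.00935). That probe set read 7.31 and 7.20 in the heart tube, 7.82 and 7.80 in caudal-half cells, and 8.37 and 8.47 in the yolk sac. Its call was lost without either heart tube array (highest limma adjusted p 0.0643). The third probe set gave 0.08 for heart tube minus caudal-half cells, the opposite sign, and -0.53 for heart tube minus yolk sac. Neither was called (limma adjusted p = 0.879 and 0.148). Heart tube minus yolk sac of the gene passed under 4 alternatives, which then gave 3 members lower in place of 2. It was -0.79 with the mean of the 3 probe sets (limma adjusted p = 0.0167), and the limma adjusted p was 0.0453 without dim genes, 0.0240 with a trended, robust prior and 0.0432 with quantile normalization again.

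The probe sets of Jag2, a further Jagged-type ligand gene, disagreed. The probe set with the higher mean read 5.86 and 5.33 in the heart tube, 6.14 and 6.01 in caudal-half cells, and 5.88 and 5.48 in the yolk sac. It was called in no comparison, with -0.48 for heart tube minus caudal-half cells, -0.09 for heart tube minus yolk sac and 0.39 for caudal-half cells minus yolk sac (limma adjusted p = 0.350, 0.867 and 0.399). The other probe set read 4.72 and 4.86 in the heart tube, 6.59 and 7.07 in caudal-half cells, and 4.996 and 5.21 in the yolk sac. On it caudal-half cells stood above both other tissues, with -2.04 ± 0.22 for heart tube minus caudal-half cells (limma adjusted p = 0.00628) and 1.72 ± 0.22 for caudal-half cells minus yolk sac (limma adjusted p = 0.00943). The first of these calls was lost without the first heart tube array (limma adjusted p = 0.0583) and the second without the first yolk sac array (limma adjusted p = 0.0555). With the mean of both, -1.26 and 1.06 passed in these comparisons (limma adjusted p = 0.00603 and 0.00916). Both probe sets placed caudal-half cells highest, and which of them follows the Jag2 transcript more closely was not tested.

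The other delta-like genes showed no called difference. Dll1, a ligand of somite formation that also acts in fetal arteries, read 6.60 and 7.23 in the heart tube, 6.80 and 6.70 in caudal-half cells, and 7.55 and 7.24 in the yolk sac. Its yolk sac arrays had the highest values, with -0.64 for caudal-half cells minus yolk sac (95% interval -1.25 to -0.04, limma adjusted p = 0.184) and -0.48 for heart tube minus yolk sac (limma adjusted p = 0.285). Dll3, a divergent family member known from somites, read 2.09 to 2.61 on the 6 arrays, at the level of the bacterial controls. Of the 10 genes it was the only one at that level in any tissue.

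Both yolk sac arrays had the lowest values of Rbpj, without a call. It read 7.26 and 6.93 in the heart tube, 7.33 and 7.05 in caudal-half cells, and 6.32 and 6.47 in the yolk sac. The difference was 0.80 ± 0.20 for caudal-half cells minus yolk sac (95% interval 0.32 to 1.28, limma adjusted p = 0.0598) and 0.70 ± 0.20 for heart tube minus yolk sac (0.22 to 1.18, limma adjusted p = 0.0747). All 3 of its probe sets went this way, by 0.80 to 1.03 and by 0.70 to 1.26. Taken as their mean, the differences were 0.93 and 0.94 and passed (limma adjusted p = 0.0145 and 0.0109). Without dim genes, caudal-half cells minus yolk sac passed as well (limma adjusted p = 0.0471). Heart tube minus caudal-half cells was -0.10 (95% interval -0.58 to 0.38).

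**Figure D2:**
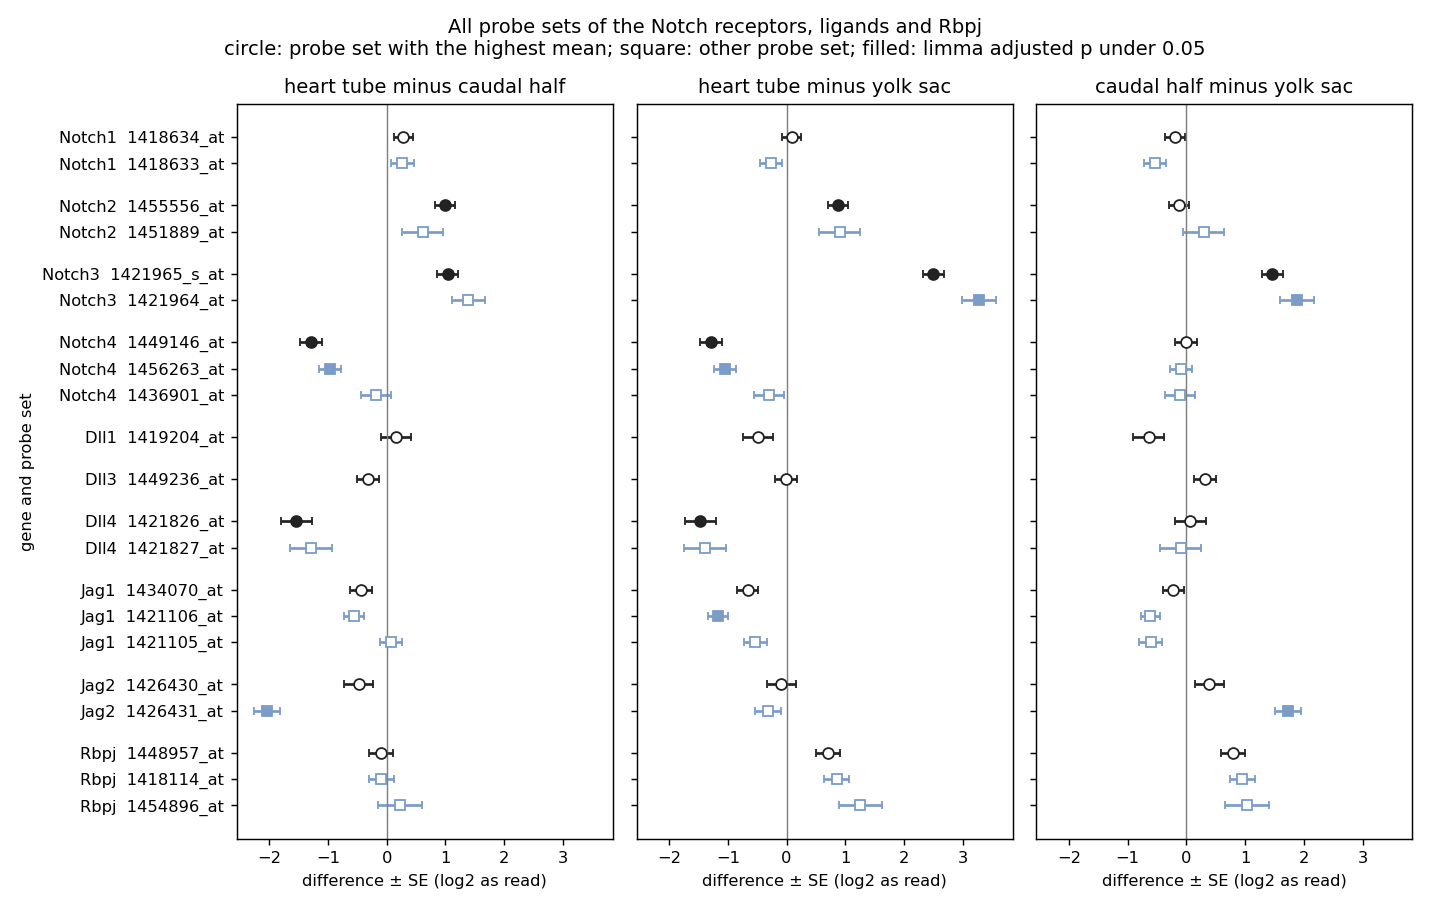
Difference between tissues (horizontal axis, log2 as read, with its standard error) for all 21 probe sets of the 10 genes (vertical axis), in the 3 comparisons. Circles are the probe set with the highest mean of a gene, squares its other probe sets, and filled symbols have a limma adjusted p under 0.05 over all named probe sets. The second Jag2 probe set stands apart from the first, at -2.04 for heart tube minus caudal-half cells and 1.72 for caudal-half cells minus yolk sac, whereas the 3 Rbpj probe sets lie together.

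The other genes of the pathway were followed in lists by role, 64 genes measured of 68 listed. In the heart tube 3 of the 64 were higher and 5 lower than in caudal-half cells (4.69% and 7.81%), and 4 were higher and 9 lower than in the yolk sac (6.25% and 14.1%). In caudal-half cells 1 was higher and 2 were lower than in the yolk sac (1.56% and 3.12%). The median difference of the 64 was -0.04, -0.04 and -0.03 in these comparisons, which share arrays, and the background over all genes is given above.

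Of 5 glycosyltransferase genes, 2 were lower in the heart tube in both comparisons, Mfng and Lfng. They encode Fringe enzymes, which add a sugar to Notch and thereby tune its response to the ligand classes. Mfng read 6.72 and 7.01 in the heart tube, 9.03 and 8.96 in caudal-half cells, and 8.82 and 8.55 in the yolk sac. The heart tube arrays lay below the others, with differences of -2.13 ± 0.19 for heart tube minus caudal-half cells and -1.82 ± 0.19 for heart tube minus yolk sac (limma adjusted p = 0.00214 and 0.00229). Both calls held whichever array was left out. Lfng was called lower too (limma adjusted p = 0.0231 and 0.0218), but its heart tube values (3.94 and 3.52) were at the level of the bacterial controls, so that the sizes are limits. With those values set to the highest control value, the differences were -1.12 and -0.94. Its call against caudal-half cells was lost when any array of those tissues was left out (highest limma adjusted p 0.126) and with the mean of its probe sets (limma adjusted p = 0.0547). The other was lost without either heart tube array and without yolk sac array 2 (highest limma adjusted p 0.118). Rfng, Pofut1 and Poglut1, the last an O-glucosyltransferase, were not called.

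Of 8 genes for proteases and secretase subunits that cut the receptor, Furin was higher in the heart tube. Furin makes the first cut of the receptor on its way to the surface. It read 9.37 and 9.16 in the heart tube, 7.73 and 7.64 in caudal-half cells, and 7.96 and 8.03 in the yolk sac. The differences were 1.58 ± 0.17 for heart tube minus caudal-half cells and 1.27 ± 0.17 for heart tube minus yolk sac (limma adjusted p = 0.00428 and 0.00543), and both calls held whichever array was left out. Aph1b, a subunit of gamma-secretase, was called higher in heart tube cells than in caudal-half cells at the edge of the threshold (1.19, limma adjusted p = 0.0495), a call lost when any of those 4 arrays was left out. Adam10, the protease of the cut that follows ligand binding, was not called (0.36 and 0.31 for heart tube minus caudal-half cells and minus yolk sac).

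Among 6 genes of other ligands and secreted modulators, Dlk1 differed most. Dlk1 is a delta-like protein without the usual receptor-binding domain. It read 6.09 and 6.06 in the heart tube, 6.71 and 7.67 in caudal-half cells, and 8.92 and 8.34 in the yolk sac. It was lower in heart tube cells than in yolk sac cells (-2.56 ± 0.35, limma adjusted p = 0.00626), while -1.45 for caudal-half cells minus yolk sac missed the threshold (limma adjusted p = 0.0531). Egfl7, a secreted protein of endothelium, was lower in the heart tube, with differences of -0.77 against caudal-half cells and -0.86 against the yolk sac (limma adjusted p = 0.0499 and 0.0209). The first of these calls was lost whichever of the 6 arrays was left out, and the second when any heart tube or yolk sac array was (highest limma adjusted p 0.226). Dner, Cntn1 and Cntn6 were at the level of the bacterial controls in every tissue.

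Few genes of nuclear partners and turnover were called. Of 7 coactivator genes only Kat2b, a histone acetyltransferase, was called, lower in the heart tube and caudal-half cells than in the yolk sac, with differences of -1.39 and -1.75 (limma adjusted p = 0.0141 and 0.00864). The first call was lost without the second heart tube or second yolk sac array and the second without the second caudal-half array (highest limma adjusted p 0.0867). Of 8 corepressor genes, 11 genes of receptor turnover and feedback and 6 of ligand endocytosis, limma called 0 in any comparison. At an unadjusted limma p under 0.05 there were 1 to 2 corepressor, 1 to 5 turnover and 0 to 1 endocytosis genes per comparison. The 5 turnover genes were for heart tube minus yolk sac. That threshold was passed by 3556 of all 18193 genes for heart tube minus caudal-half cells. It was passed by 4734 for heart tube minus yolk sac and 4337 for caudal-half cells minus yolk sac. The feedback gene Nrarp differed by -0.996 and -0.95 for heart tube minus caudal-half cells and minus yolk sac and missed the threshold (limma adjusted p = 0.0764 and 0.0561). Dtx1 of the turnover list and Neurl1b of the endocytosis list were at the level of the bacterial controls in every tissue.

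Of the Hes and Hey genes, only Hey1 and Hey2 were called. Of the arterial genes called in the heart tube comparisons, all but Unc5b were lower in the heart tube. Among 6 Hes and Hey genes, Hey2 was higher in the heart tube by 2.30 and 2.32 against caudal-half cells and the yolk sac, and Hey1 was higher in caudal-half cells than in the yolk sac by 1.72 (limma adjusted p = 0.00587, 0.00311 and 0.00864). Hey1 was also higher in heart tube cells than in yolk sac cells by 1.05 (limma adjusted p = 0.0359), a call lost when any of those 4 arrays was left out. For heart tube minus caudal-half cells, Hey1 differed by -0.68 without a call (limma adjusted p = 0.183). The uncalled genes of the list went in both directions there. Of 7 endothelial arterial genes, Gja5 and Sox17 were lower in the heart tube in both comparisons. Gja5, which encodes the arterial gap junction protein connexin 40, differed by -2.77 and -3.89, and Sox17, a transcription factor of arterial endothelium, by -1.31 and -1.23 (limma adjusted p = 0.00133, 0.000234, 0.0207 and 0.0147). The Sox17 calls were lost without either heart tube array and without the first array of the other tissue (highest limma adjusted p 0.123). Nrp1, a coreceptor of VEGF, and Gja4, a further connexin gene, were lower in heart tube cells than in yolk sac cells (-0.85 and -0.72), and Unc5b, a netrin receptor gene, was higher by 0.70. Of those 3 calls (limma adjusted p = 0.0191, 0.0421 and 0.0462), that of Nrp1 was lost when any heart tube or yolk sac array was left out, and those of Gja4 and Unc5b whichever of the 6 arrays was left out (highest limma adjusted p 0.211). Gja5 was also lower in caudal-half cells than in the yolk sac (-1.12, limma adjusted p = 0.0254), a call lost when any of those 4 arrays was left out.

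**Figure D3:**
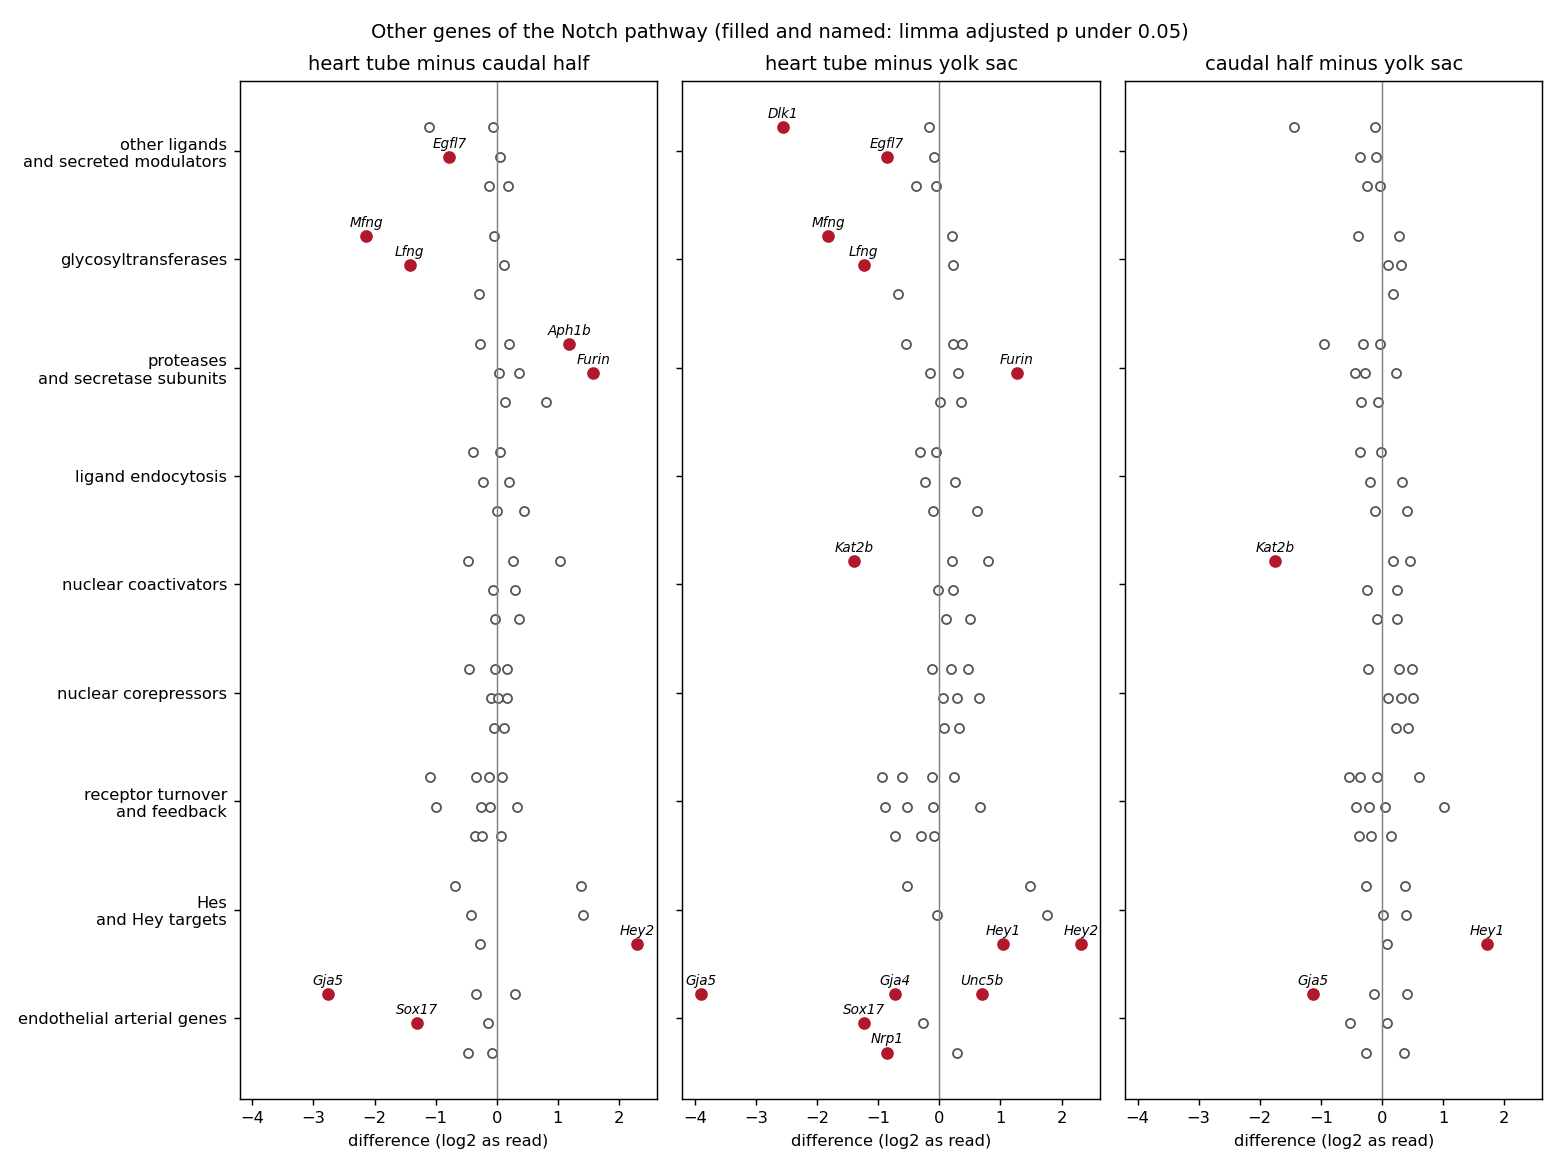
Difference between tissues (horizontal axis, log2 as read) for the 64 other pathway genes, in rows by role, in the 3 comparisons. Each point is a gene, and filled, named points have a limma adjusted p under 0.05; height within a row has no meaning. Mfng, Lfng, Gja5 and Sox17 lie left of 0 and Furin and Hey2 right of 0 in both heart tube comparisons, while no corepressor or endocytosis gene is filled.

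By the likeness of their values over the 6 arrays, given as a description with no test, the closest genes to Notch4 were Cldn5 (r = 0.997), Tubb6 (0.996) and Ifitm3 (0.995). Those closest to Dll4 were AU018091 (0.989), Mfng (0.979) and Chchd10 (0.978). Airn (0.999), Papss2 (0.998) and Lmo4 (0.996) were closest to Notch2, and Zfp266 (0.999), Msx1 (0.9985) and 2700046A07Rik (0.996) to Notch3. For each, 3043 or 3044 genes whose tissue means span at least 1 were searched, and all points come from the same 3 tissues and 6 arrays. Among the 10 genes themselves, Notch4 and Dll4 were most alike (0.966), and Notch4 and Notch2 most opposed (-0.974).

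Markers of endothelium and of other cell types were read beside these genes. Of the genes behind the sort, Pecam1 (CD31) was not called in any comparison, Ptprc (CD45) was at the level of the bacterial controls in every tissue, and Itga2b (CD41) was lower in the heart tube and caudal-half cells than in the yolk sac. On the list of 12 endothelial genes, none was at the level of the bacterial controls in any tissue. Its mean level was 9.54 and 9.65 in the heart tube, 10.02 and 10.12 in caudal-half cells, and 10.25 and 10.28 in the yolk sac. Of the 12, 3 were lower and 1 higher in heart tube cells than in caudal-half cells, and 6 lower and 0 higher than in the yolk sac. The median difference of the list was -0.71 and -0.77 in these comparisons, where Notch4 had -1.29 in both and Dll4 -1.54 and -1.47. Whether the lower endothelial list has a part in the lower Notch4 and Dll4 was not tested.

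The mural and smooth muscle list bears on Notch3. Pdgfrb, the platelet-derived growth factor receptor of pericytes, was higher in the heart tube by 1.52 against caudal-half cells and 1.07 against the yolk sac, and Rgs5 by 2.58 and 1.39 (limma adjusted p = 0.00650, 0.0132, 0.00213 and 0.0120). Of the 10 genes of this list, 3 were higher and 1 lower in heart tube cells than in caudal-half cells, and 4 higher and 2 lower than in the yolk sac. The lower ones were Abcc9, a potassium channel subunit gene, in both comparisons, and the smooth muscle actin gene Acta2 against the yolk sac (-0.94, limma adjusted p = 0.0347). Abcc9 averaged 3.06 in the heart tube, 6.82 in caudal-half cells and 7.92 in the yolk sac (limma adjusted p = 0.00436 and 0.000929). The mean level of the 10 genes of the list was 5.61 to 5.74 in the heart tube, 5.47 to 5.63 in caudal-half cells and 5.74 to 5.93 in the yolk sac. Kcnj8 was at the level of the bacterial controls in all tissues, Abcc9 in the heart tube, and Cnn1 in caudal-half cells and the yolk sac. Between caudal-half and yolk sac cells, where Notch3 differed by 1.46, the smooth muscle gene Tagln differed by 1.24, Rgs5 by -1.19 and Pdgfrb by -0.45 (limma adjusted p = 0.0171, 0.0263 and 0.188). The part of mural cells in the Notch3 differences was not tested.

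Other markers moved with the tissues as well. The mean level of 10 cardiomyocyte genes was 7.05 to 7.12 in the heart tube, 4.96 to 5.07 in caudal-half cells and 4.32 to 4.65 in the yolk sac. That of 7 endocardial genes was 9.97 to 10.04, 5.39 to 5.55 and 5.90 to 6.06, and that of 10 visceral endoderm genes 4.79 to 4.85, 5.20 to 5.31 and 9.52 to 9.58, in the same order of tissues. Of these lists, cardiomyocyte genes were higher in 5 of 10 and 7 of 10 in heart tube cells than in caudal-half cells and the yolk sac, and visceral endoderm genes, a list that also holds Sox17, lower in 2 of 10 and 9 of 10. Endocardial genes were higher in the heart tube in 7 of 7 and 6 of 7, and epithelial genes lower in 6 of 8 and 7 of 8. The mean of 8 epithelial genes was 4.75 to 4.78 in the heart tube, 6.60 to 6.80 in caudal-half cells and 7.59 to 7.68 in the yolk sac, and that of 8 erythroid genes 6.72 to 6.96, 6.92 to 7.42 and 8.62 to 8.94. Of 10 genes of presomitic and somitic mesoderm, where Dll1 and Dll3 are known to act, 7 were at the level of the bacterial controls in every tissue, among them Tbx6 and Mesp2. None of the 10 was called in the heart tube comparisons, and Meox1 and Tcf15 were higher in caudal-half cells than in the yolk sac (1.40 and 1.77, limma adjusted p = 0.0153 and 0.0315). The mean of these 10 genes was 3.21 to 3.24 in the heart tube, 3.66 to 3.72 in caudal-half cells and 3.22 to 3.28 in the yolk sac. Of 9 neural genes, 6, 4 and 6 were within that range in the heart tube, caudal-half cells and the yolk sac. Their mean was 4.01 to 4.02, 4.38 to 4.40 and 3.70 to 3.83, in the same order. Sox2, a transcription factor of neural progenitors, averaged 7.01 in caudal-half cells and was at control level in the heart tube and the yolk sac (limma adjusted p = 0.000710 for heart tube minus caudal-half cells and 0.00229 for caudal-half cells minus yolk sac). Tubb3, a neuronal tubulin gene, averaged 8.35 in the heart tube, 4.06 in caudal-half cells and 3.47 in the yolk sac (limma adjusted p = 0.00153 and 0.000544 for the heart tube comparisons). Nes, an intermediate filament gene of neural progenitors, differed by -0.84 for heart tube minus caudal-half cells and 0.77 for caudal-half cells minus yolk sac (limma adjusted p = 0.0377 and 0.0374). The part of these cell types in the differences of the Notch genes was not tested.

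**Figure D4:**
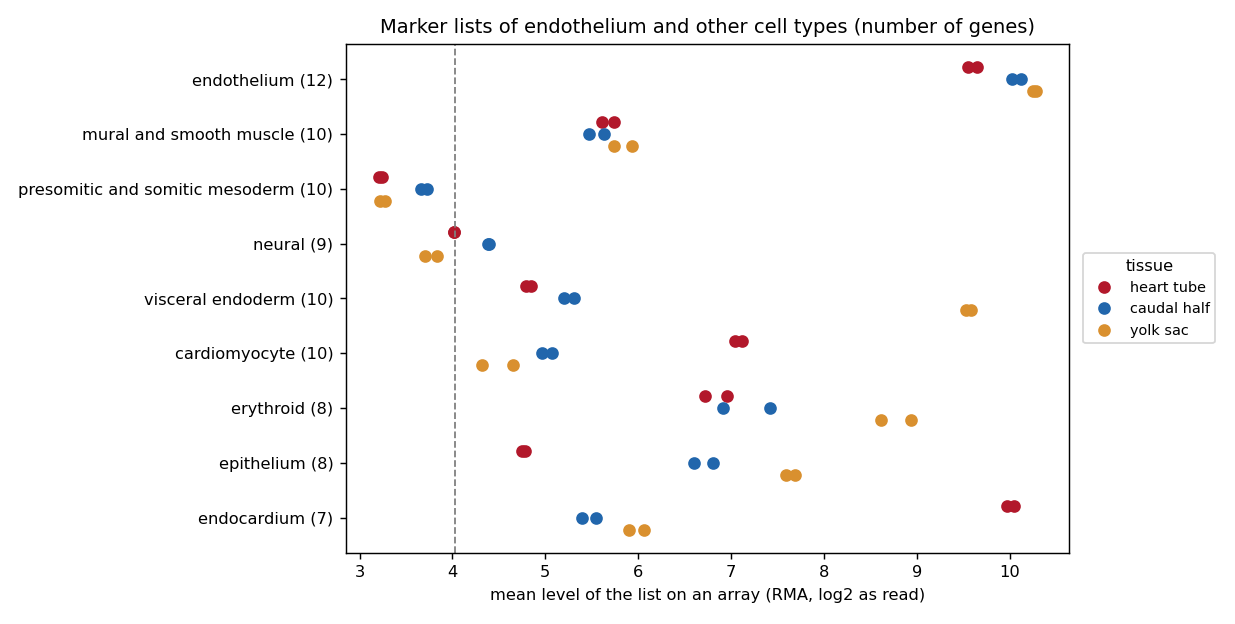
Mean level of each marker list (rows, with the number of genes) on each of the 6 arrays (horizontal axis, normalized log2 value as read). Colours are tissues, points are arrays, and the dashed line is the highest value of the bacterial controls (4.03). The endothelial list is lowest in the heart tube (9.54 and 9.65), the endocardial and cardiomyocyte lists highest there, and the visceral endoderm list highest in the yolk sac.

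Over all probe sets, r was 0.981 to 0.986 between replicates and 0.946 to 0.969 between tissues. The Gapdh control probes at the 3' end exceeded those at the 5' end, which tracks RNA quality, by 1.88 and 1.98 in the heart tube, 1.67 and 1.58 in caudal-half cells, and 2.04 and 1.81 in the yolk sac. The same measure for the actin control probes was -0.06 and 0.01 in the heart tube, -0.10 and -0.01 in caudal-half cells, and -0.05 and -0.04 in the yolk sac. The Gapdh gap was smallest in caudal-half cells, and its part in the results was not tested. No scan date or batch was used here, since the labels and tables name none.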

How the data were processed

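RNA of 6 sorted samples, 2 per tissue, was measured on Affymetrix mouse arrays. Deposited values are 1 signal per probe set, which the authors computed by RMA (affy package, per the submitters' processing notes). Versions and filters are not stated in the labels. RMA corrects background, forces all arrays to 1 distribution and summarises probes. Deposited signals ran from 2.46 to 2172500, whose log2 (21.1) exceeds the usual range of RMA values, while the natural log ran from 0.899 to 14.6. That natural log was read as the authors' log2 value. Only the natural log was computed from the deposited signals; no further normalization was done.

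Of 45101 probe sets, 64 were controls, 34945 others had 1 gene symbol, 932 several and 9211 none. The probe set with the highest mean over 6 arrays stood for its gene, which gave 18193 genes, and the other probe sets of the 10 genes were tested separately. Tissue means were fitted with limma 3.58.1 (R 4.3.3) over all 6 arrays without covariates (3 residual and 3.48 prior degrees of freedom), two-sided, adjusted over all genes of a comparison. The fit was tested on simulated data. Replicates are independent biological samples per the labels' design text.

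The members, lists, motifs and tests were chosen with earlier results of these data known. The naming rule takes all 10 members and called genes of the pathway lists, up to 4 per list and comparison by size. It also takes list genes at the level of the bacterial controls, marker genes, and the 3 genes most like each called member. Pathway genes named beyond this rule (Adam10, Nrarp, Rfng, Pofut1, Poglut1 and Unc5b) were chosen after their values were seen. Some listed genes are not reported here.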

Additional observations from a re-analysis of the deposited data

How the results depend on the processing

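Of the 9 member calls, those of Notch3 against the yolk sac held under all 14 alternatives and none of the 9 changed direction. The 14 are not all separate checks. Taking log2 of the deposited signal only rescales the values and cannot change a call. Leaving out either array of the tissue not compared gives the same tests as fitting only the 2 tissues compared. Left out in turn, the arrays gave 0 to 2 members higher and 0 to 2 lower for heart tube minus caudal-half cells, 1 to 2 and 0 to 2 for heart tube minus yolk sac, and 1 to 1 and 0 to 0 for caudal-half cells minus yolk sac. The other pathway genes then gave 2 to 4 and 2 to 4, 2 to 4 and 3 to 8, and 1 to 1 and 1 to 2, and all genes 208 to 493 and 168 to 406, 387 to 764 and 549 to 1030, and 222 to 475 and 416 to 680. The lowest of these counts of all genes came without the first caudal-half array or, for the 2 counts of heart tube minus yolk sac, without the first heart tube array, which gave the same 168 for heart tube minus caudal-half cells.

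With the mean of all probe sets, 1 member was higher for heart tube minus caudal-half cells, and 3 members and 3 pathway genes were higher for caudal-half cells minus yolk sac. Without dim genes, 2 members were higher for caudal-half cells minus yolk sac and 7 pathway genes for heart tube minus yolk sac; fewer genes are tested there. A trended, robust prior gave 8 pathway genes higher for heart tube minus yolk sac, 2 higher and 4 lower for caudal-half cells minus yolk sac, and 1214 genes higher there. Fitting only the 2 tissues compared gave 475 genes higher for caudal-half cells minus yolk sac. With every probe set tested, 850 and 1632 were higher in the heart tube comparisons and 1346 lower for caudal-half cells minus yolk sac, out of more features. With the replicate number as a block, the member counts were 2 and 2, 2 and 2, and 1 and 0, and 2 pathway genes were higher for caudal-half cells minus yolk sac. Calls of Lfng, Egfl7 and Aph1b for heart tube minus caudal-half cells (adjusted p = 0.0505, 0.0737 and 0.0829) and of Gja4 and Unc5b for heart tube minus yolk sac (0.0539 and 0.0562) were lost. These numbers were not found to mark pairs, since deviations of same-numbered arrays correlated at 0.05, -0.01 and 0.02.

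Sign changes touched uncalled differences only. With the mean of all probe sets, Notch1 was at -0.0869 for heart tube minus yolk sac, Notch2, Notch4 and Dll4 at 0.0847, -0.0667 and -0.0152 for caudal-half cells minus yolk sac, and Rbpj at 0.0118 for heart tube minus caudal-half cells. With quantile normalization again, Notch4 was at -0.00461 for caudal-half cells minus yolk sac and Dll3 at 0.0748 for heart tube minus yolk sac. Leaving out arrays, Notch4 ran from -0.10 to 0.10 and Dll4 from -0.23 to 0.37 for caudal-half cells minus yolk sac, Dll1 from -0.16 to 0.48 and Rbpj from -0.26 to 0.0667 for heart tube minus caudal-half cells, and Dll3 from -0.0428 to 0.0334 and Jag2 from -0.35 to 0.18 for heart tube minus yolk sac. The causes were not tested. With 2 arrays per tissue, a difference that misses the threshold does not show equal levels, and signals below 4.03 lie at the level of the bacterial controls.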

Other observations

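The genes that lie next to the 10 members on their chromosomes, among genes measured and by the order of assembly GRCm38.p6, were read as a further description. Of these 20 neighbours, limma called 1 lower in heart tube cells than in caudal-half cells and 1 lower in heart tube cells than in yolk sac cells. Both times it was Egfl7, a neighbour of Notch1. Over all genes, 2.65% and 6.67% were called lower in these comparisons. Egfl7 read 9.10 and 9.17 in the heart tube, 9.83 and 9.98 in caudal-half cells, and 9.93 and 10.06 in the yolk sac, while Notch1 was not called in either comparison. Rrp1b, a neighbour of Notch3, was the 1 called in caudal-half cells against the yolk sac, higher by 0.91 (limma adjusted p = 0.0204). Of all genes, 4.22% were called higher in that comparison. The neighbours of Notch4 (BC051142 and Gpsm3) and of Dll4 (Vps18 and Chac1) were not called, with -0.69, -0.56, 0.22 and -1.15 for heart tube minus caudal-half cells.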
